A study of Mus musculus with 9 samples.

Results

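Astrocyte identity genes are described here across 9 RNA libraries of mouse brain: *Slc1a2*, *Slc1a3*, *Gfap*, *Aqp4*, *Aldh1l1*, *Gja1*, *S100b*, *Glul*, *Hepacam* and *Slc7a10*. They were chosen by symbol, as genes widely used to mark astrocytes. All 10 symbols had a row among the 24421 rows of the counts table. Astrocytes are the glial cells that take up glutamate and potassium released by neurons, recycle glutamate to glutamine, line blood vessels with end-feet and couple to each other through gap junctions. The members cover these tasks: glutamate uptake (*Slc1a2*, *Slc1a3*), glutamine synthesis (*Glul*), gap junctions (*Gja1*), end-feet and adhesion (*Aqp4*, *Hepacam*), amino acid transport (*Slc7a10*), folate metabolism (*Aldh1l1*), the cytoskeleton (*Gfap*) and calcium binding (*S100b*). Gliomas are tumors with glial features, and a glioma cell may or may not use genes of this set.

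The libraries came from brains of C57BL/6 mice. SB28 is a mouse glioma line that grows in the brain of such mice and carries GFP. The control and BAL101553 groups, 3 libraries each, were SB28 cells recovered from brain tumors of mice given vehicle or BAL101553 (lisavanbulin), a drug that acts on microtubules and activates the spindle assembly checkpoint. The study's methods describe tumor cells sorted as CD45- CD11b- GFP+, while the labels of these 6 libraries read whole tissue. Harvest was on day 21 for controls, whereas for BAL101553 the methods give day 35 and the results text day 33, so treatment and day of harvest cannot be told apart. The third group, also 3 libraries, was labelled as astrocytes with BAL101553 as treatment. How these astrocytes were obtained was not given in the sources used here, and no library of untreated astrocytes was analysed, so only the comparison with the BAL101553 group matched the labelled treatment. The study calls its ex vivo samples biological replicates, but the sources used here do not tie each of these libraries to a mouse of its own, so the p-values measure the spread between these libraries.

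Depth was similar in the 3 groups. Control libraries held 24540452 to 28761388 counted reads, BAL101553 libraries 26667789 to 34013875 and astrocyte libraries 22919523 to 29230743. Levels are given as CPM (read counts scaled to a library of fixed size) after TMM scaling over the 9 libraries, and levels of different genes are compared only per kilobase of exon. The astrocyte libraries also held transcripts of other brain cells: the summed level of 6 oligodendrocyte markers was 10282 to 12723 CPM there against 15.3 to 20.6 CPM in the tumor libraries, and the summed level of 13 microglia and macrophage markers was 651 to 1361 CPM against 43.7 to 57.8 CPM. The summed level of 6 ependymal markers was 558 to 931 CPM against 0.206 to 0.547 CPM. In bulk RNA, fewer cells of a type and less RNA per cell cannot be told apart. Percentages of the astrocyte level or mean given below are relative to these libraries, with the RNA of their other cells included.

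All 10 members were read at 87.4 CPM or more in every library labelled astrocytes. Together they took 1.85% to 2.13% of all counts there, against 0.0926% to 0.0957% in control and 0.0725% to 0.0816% in BAL101553 libraries. *Gja1*, *Aldh1l1* and *Glul* were above 5 CPM in each of the 6 tumor libraries. The other 7 members were at 0 to 2.96 CPM there.

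The sequence before the transcription start is shown for these 3 genes, and for *Gfap* and *Slc1a3* as members that SB28 cells barely used. Each is the 250 bases upstream of the start that RefSeq gives on GRCm38.p6, 5′ to 3′ on the gene's strand. The windows lie at chr10:56377050-56377299 for *Gja1*, chr6:90550543-90550792 for *Aldh1l1*, chr1:153899679-153899928 for *Glul*, chr11:102897201-102897450 for *Gfap* and chr15:8710808-8711057 for *Slc1a3*. Capitals mark matches, on either strand, to the AP-1 motif TGANTCA, the STAT motif TTCNNNGAA, the NFI half-site TTGGC or the SOX motif ACAAT.
Gja1: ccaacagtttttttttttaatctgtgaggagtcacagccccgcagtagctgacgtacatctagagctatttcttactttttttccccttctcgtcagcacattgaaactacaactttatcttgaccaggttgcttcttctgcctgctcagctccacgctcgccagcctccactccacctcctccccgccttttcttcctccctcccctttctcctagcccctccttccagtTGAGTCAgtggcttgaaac
Aldh1l1: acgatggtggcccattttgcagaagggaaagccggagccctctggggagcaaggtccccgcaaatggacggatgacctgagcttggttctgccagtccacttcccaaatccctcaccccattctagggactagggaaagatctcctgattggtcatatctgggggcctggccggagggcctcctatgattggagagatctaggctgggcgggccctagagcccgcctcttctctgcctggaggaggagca
Glul: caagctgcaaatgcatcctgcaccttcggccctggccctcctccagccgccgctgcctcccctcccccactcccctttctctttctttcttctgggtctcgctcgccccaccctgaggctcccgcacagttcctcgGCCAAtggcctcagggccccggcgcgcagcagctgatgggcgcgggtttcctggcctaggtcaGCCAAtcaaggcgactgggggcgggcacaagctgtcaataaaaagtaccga
Gfap: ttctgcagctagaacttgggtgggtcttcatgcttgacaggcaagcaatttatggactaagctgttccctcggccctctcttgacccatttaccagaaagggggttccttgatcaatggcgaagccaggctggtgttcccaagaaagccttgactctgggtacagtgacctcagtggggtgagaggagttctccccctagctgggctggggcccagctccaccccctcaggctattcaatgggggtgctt
Slc1a3: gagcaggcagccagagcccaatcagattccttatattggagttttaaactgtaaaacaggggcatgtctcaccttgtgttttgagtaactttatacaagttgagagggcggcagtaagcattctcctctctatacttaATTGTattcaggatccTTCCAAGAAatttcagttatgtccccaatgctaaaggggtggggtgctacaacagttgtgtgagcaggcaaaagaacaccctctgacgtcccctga
The *Gja1* window held 1 AP-1 match, 19 bases before the start, and 6.75% of all 32851 windows of this length held one. *Slc1a3* held 1 STAT match, 96 bases before the start, and 1 SOX match 112 bases before it, motifs present in 7.02% and 27.7% of all windows. *Glul* held 2 NFI half-sites, a motif found in 41.5% of windows. None of the 4 motifs was found in the windows of *Aldh1l1*, *Gfap* and *Slc7a10*. The windows of the 3 genes read in SB28 cells held 15 (*Glul*), 7 (*Aldh1l1*) and 6 (*Gja1*) CG dinucleotides, against a median of 6 over all windows. Among the other members with a window, *Slc7a10* held 14, *Hepacam* 4, *Slc1a3*, *Gfap* and *S100b* 2 each and *Slc1a2* 1. A relation between CG count and level in SB28 cells was not tested. RefSeq windows matched 9 of the 10 members. The *Aldh1l1*, *Gfap*, *Slc1a2* and *Hepacam* starts used by RefSeq lie inside the gene spans of the GENCODE annotation, which reach further upstream. The windows of these genes thus lie within the annotated gene.

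**Figure D1:**
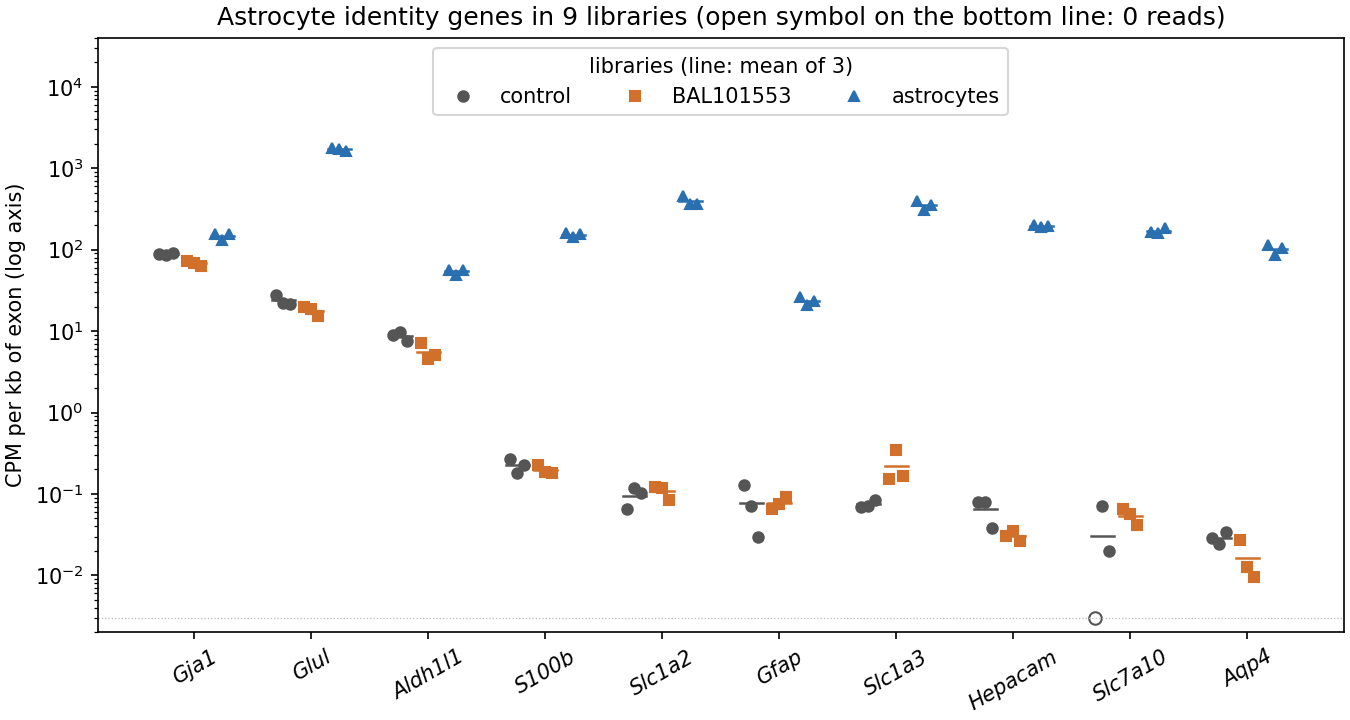
Level of each member in each library, in CPM per kb of exon on a log axis; points are libraries, short lines are means of 3 libraries per group, and the open symbol marks 0 reads. Triangles (astrocytes) lie above all tumor libraries for every member, by the least for *Gja1*, while *Gja1*, *Glul* and *Aldh1l1* stand well above the other 7 members in tumor cells.

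*Gja1* encodes connexin 43, the channel protein of astrocyte gap junctions. It lies on chromosome 10 at 56377330 to 56402513 of GRCm38. It was read at 918, 888 and 928 CPM in control tumor cells, at 746, 709 and 650 CPM in BAL101553 tumor cells, and at 1605, 1352 and 1605 CPM in the astrocyte libraries. The 3 groups did not overlap. Tumor cells carried 42.7% to 61% of the astrocyte mean, with a mean of 53% over the 6 libraries. *Gja1* was 2.19-fold higher in astrocytes than in BAL101553 tumor cells (log2 fold change 1.13, SE 0.11, adjusted p = 2.89e-05, edgeR quasi-likelihood test) and 1.68-fold higher than in control tumor cells (log2 0.74, SE 0.10, adjusted p = 1.15e-04). It made up 87.1% to 89.4% of the members' reads in tumor libraries and 8.22% to 9.42% in astrocyte libraries.

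*Glul* encodes glutamine synthetase, which joins ammonia to the glutamate that astrocytes have taken up. The gene spans chromosome 1 from 153899944 to 153909723. Exons of *Glul*, *Aldh1l1*, *Slc1a2* and *Slc7a10* overlap exons of other annotated genes, and reads there may be shared. The *Glul* level was 92.5, 74.3 and 72.5 CPM in control, 65, 61.7 and 50.5 CPM in BAL101553 and 5906, 5678 and 5356 CPM in astrocyte libraries. Tumor cells held 0.895% to 1.64% of the astrocyte mean. The difference was 96.6-fold against BAL101553 (log2 6.59, SE 0.17) and 71.1-fold against control.

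*Aldh1l1* encodes an enzyme that oxidizes 10-formyltetrahydrofolate, and its promoter is used to label astrocytes in mice. It lies on chromosome 6 from 90486427 to 90600203. The control libraries read 40.8, 44.4 and 34.3 CPM, the BAL101553 libraries 32.2, 20.3 and 22.8 CPM and the astrocyte libraries 253, 223 and 255 CPM. The tumor libraries were at 8.33% to 18.2% of the astrocyte mean. Astrocytes were 9.79-fold higher than BAL101553 tumor cells (log2 3.29, SE 0.18, adjusted p = 9.43e-07, edgeR) and 6.14-fold higher than control tumor cells.

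The glutamate transporters were close to absent in SB28 cells. *Slc1a2* encodes GLT-1, the main glutamate transporter of the forebrain, and was read at 5965, 4753 and 4787 CPM in astrocytes but at 0.852, 1.55 and 1.35 CPM in control and 1.61, 1.54 and 1.12 CPM in BAL101553 libraries. *Slc1a3* encodes GLAST, its relative, and was at 3340, 2616 and 3004 CPM in astrocytes. In control tumor cells *Slc1a3* was at 0.583, 0.606 and 0.716 CPM, and in BAL101553 tumor cells at 1.3, 2.96 and 1.41 CPM. As a share of the astrocyte level, *Slc1a3* stood at 0.0213% in control (95% exact Poisson interval 0.0156% to 0.0284%, counting error only) and at 0.0633% in BAL101553 cells (0.0539% to 0.0739%). *Slc1a2* stood at 0.0259% over both tumor groups.

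The ratio of *Slc1a3* to *Slc1a2* reads was 0.56, 0.55 and 0.628 in the astrocyte libraries, 0.684, 0.39 and 0.531 in control and 0.809, 1.92 and 1.26 in BAL101553 libraries. The 3 BAL101553 libraries lay above all others. *Slc1a3* reads there numbered 38, 75 and 48, so the ratios carry counting error.

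The remaining members were at a few reads per tumor library. *Aqp4*, the water channel of astrocyte end-feet, had 2 to 5 reads in each tumor library and 708, 540 and 659 CPM in astrocytes, which put it at 0.0223% of the astrocyte level. *Hepacam*, the adhesion protein GlialCAM, had 3 to 7 reads against 674, 643 and 659 CPM. *Slc7a10* carries small neutral amino acids, D-serine among them, and had 0 to 4 reads against 345, 340 and 395 CPM. The control library without a read allows up to 0.135 CPM, the value of 3 reads. *S100b*, a calcium-binding protein, had 7 to 10 reads and 0.138% of the astrocyte level. *Gfap*, the intermediate filament protein that rises in reactive astrocytes, had 3 to 13 reads in tumor libraries and 111, 87.4 and 99.7 CPM in astrocytes. It stood at 0.326% of the astrocyte level, and per kb of exon its level in astrocytes was the lowest of the 10.

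Every member passed the edgeR test as higher in astrocytes than in BAL101553 cells (10 of 10, in a comparison where 85.1% of 15314 genes were called, 46.3% higher and 38.9% lower) and than in control cells (10 of 10, where 88.3% were called, 48.8% higher and 39.5% lower). For 5 members, *Gfap*, *Aqp4*, *S100b*, *Hepacam* and *Slc7a10*, the count filter was passed through the astrocyte libraries alone, so a difference was fixed by the filter. The groups did not overlap for any member, as for 87.8% and 89.9% of all genes in the same comparisons. Log2 fold changes against BAL101553 cells were 12.61 for *Hepacam*, 12.56 for *Aqp4*, 11.85 for *Slc1a2*, 11.60 for *Slc7a10*, 10.67 for *Slc1a3*, 9.59 for *S100b* and 8.24 for *Gfap*.

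**Figure D2:**
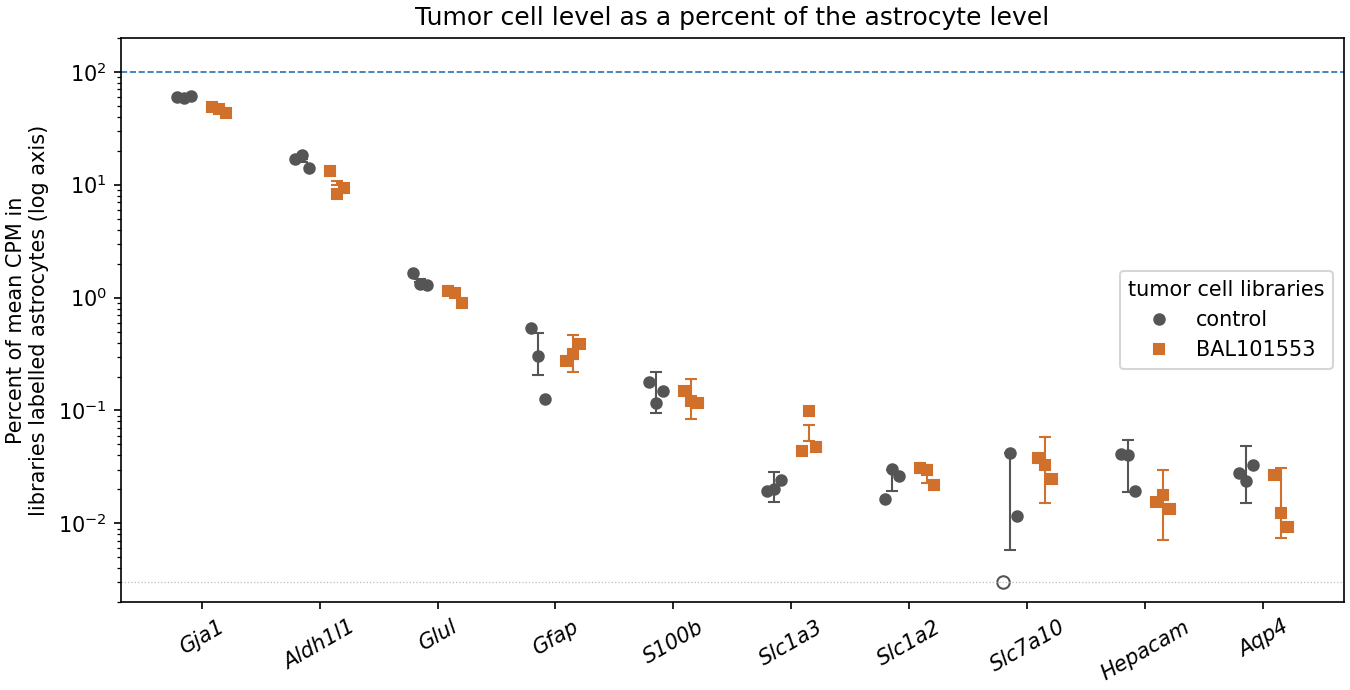
Level of each member in the 6 tumor libraries as a percent of its mean level in the astrocyte libraries, on a log axis; points are libraries, bars are 95% exact Poisson counting intervals around the group mean, the open symbol marks 0 reads, and the dashed line is 100%. *Gja1* lies at 42.7% to 61%, *Aldh1l1* at 8.33% to 18.2% and *Glul* at 0.895% to 1.64%, and the other 7 members lie lower.

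The order of the members differed between the astrocyte and tumor libraries. Per kb of exon, *Glul* led in astrocytes with a mean of 1699 CPM per kb. *Slc1a2* and *Slc1a3* followed at 394 and 350 CPM per kb, with ranges that overlapped. *Hepacam* came next at 197, then *Slc7a10* at 171, *S100b* at 154 and *Gja1* at 148 CPM per kb, where *Slc7a10* overlapped *S100b* and *S100b* overlapped *Gja1*. *Aqp4* at 102, *Aldh1l1* at 53.9 and *Gfap* at 23.5 CPM per kb closed the order without overlap. In control tumor cells *Gja1* led at 88.8, before *Glul* at 24 and *Aldh1l1* at 8.82 CPM per kb, and *S100b* came next at 0.226. The 6 lower members lay at 0.029 to 0.0953 CPM per kb with overlapping ranges. In BAL101553 cells the leading 3 stood in the same order, at 68.4, 17.8 and 5.56 CPM per kb.

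Within the astrocyte group the members varied little. The highest library exceeded the lowest by 1.05-fold for *Hepacam* and by 1.31-fold for *Aqp4*, the narrowest and widest of the 10. Library 2 was lowest for 9 of 10 members, and for *Glul* library 3 was lowest. The 13 microglia and macrophage markers were each highest in library 2 and lowest in library 1, with summed levels of 651, 1361 and 1013 CPM in libraries 1, 2 and 3. The oligodendrocyte markers summed to 12264, 12723 and 10282 CPM, and the ependymal markers to 649, 558 and 931 CPM, lowest in library 2 as were 9 of the members. The part of these markers in the spread of the members was not tested.

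The genes with a profile most like the members' mean over the 9 libraries were *Ttyh1*, *Rtn1*, *Nfasc*, *Ntrk2* and *Slc6a11* (Pearson r 0.99936 to 0.99899 on log2 CPM). This describes 9 libraries in which astrocyte and tumor libraries form separate clusters, and 1115 of 13665 other genes reached r of at least 0.99. Among the members themselves *Gja1* was least like the other 9 (r = 0.93635).

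Between the SB28 groups, 5 members could be tested, and *Gja1* and *Slc1a3* passed in opposite directions. This is 2 of 5, where 14.7% of 12633 genes were called, 8.64% higher and 6.09% lower. *Gja1* fell from 911 ± 21.1 to 702 ± 48.5 CPM (SD, n = 3 each) in BAL101553 cells, a log2 fold change of -0.37 (SE 0.09, adjusted p = 0.0363, edgeR quasi-likelihood test). *Slc1a3* rose from 0.635 ± 0.0707 to 1.89 ± 0.927 CPM, a log2 fold change of 1.57 (SE 0.40, adjusted p = 0.0403, edgeR), at a level of 13 to 75 reads per library.

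*Aldh1l1* was at 39.8 ± 5.11 CPM in control and 25.1 ± 6.3 CPM in BAL101553 cells (log2 -0.66, SE 0.19, adjusted p = 0.0508, edgeR), and passed in 7 of 15 alternative settings, DESeq2 among them (adjusted p = 0.00792, range 0.00792 to 0.137). On counts simulated for this comparison, DESeq2 made 54 false calls and the main test 17. *Glul* was at 79.8 ± 11.1 and 59.1 ± 7.59 CPM (log2 -0.43, SE 0.14, adjusted p = 0.0735, edgeR). Neither passed in the main test, though the control and BAL101553 libraries did not overlap for either gene. *Slc1a2*, at 1.25 ± 0.36 and 1.42 ± 0.264 CPM, overlapped between the groups (log2 0.18, SE 0.32, adjusted p = 0.720, edgeR). Libraries did not overlap for 4 of the 5 tested members, against 39.7% of all genes tested. The other 5 members, at 0 to 13 reads per library, were below the count filter of the main test. With a filter of at least 1 count in any library, none of these 5 passed: adjusted p was 0.327 for *Hepacam* (log2 -1.07), 0.514 for *Aqp4* (log2 -0.79) and higher for the others (edgeR).

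Neither call held through the removal of each library. With 1 library left out at a time, *Slc1a3* passed in 1 of 6 fits, that without BAL101553 library 1, and its log2 fold change was 1.09 without BAL101553 library 2, the highest library, with adjusted p up to 0.119. *Gja1* also passed in 1 of 6 fits, that without BAL101553 library 2, with log2 fold changes of -0.42 to -0.32 and adjusted p up to 0.125. With library totals in place of TMM, *Gja1* gave a log2 fold change of -0.29 (adjusted p = 0.0574, edgeR). Endothelial markers, whose cells can also read *Gja1*, summed to 754 to 895 CPM in control and 546 to 668 CPM in BAL101553 libraries. Of the 8, *Cdh5* was the 1 called (log2 -0.52, adjusted p = 0.0195, edgeR), beside 14.7% of all genes, and it passed in 3 of 6 fits with a library left out. *Cdh5* held most of the sum at 764 ± 60.4 and 530 ± 40.8 CPM, while *Pecam1* was at 0.324 to 1.21 CPM and *Cldn5* at 0.295 to 1.48 CPM in the tumor libraries. None of the 8 was at 0 throughout. Their part in the *Gja1* difference was not tested.

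**Figure D3:**
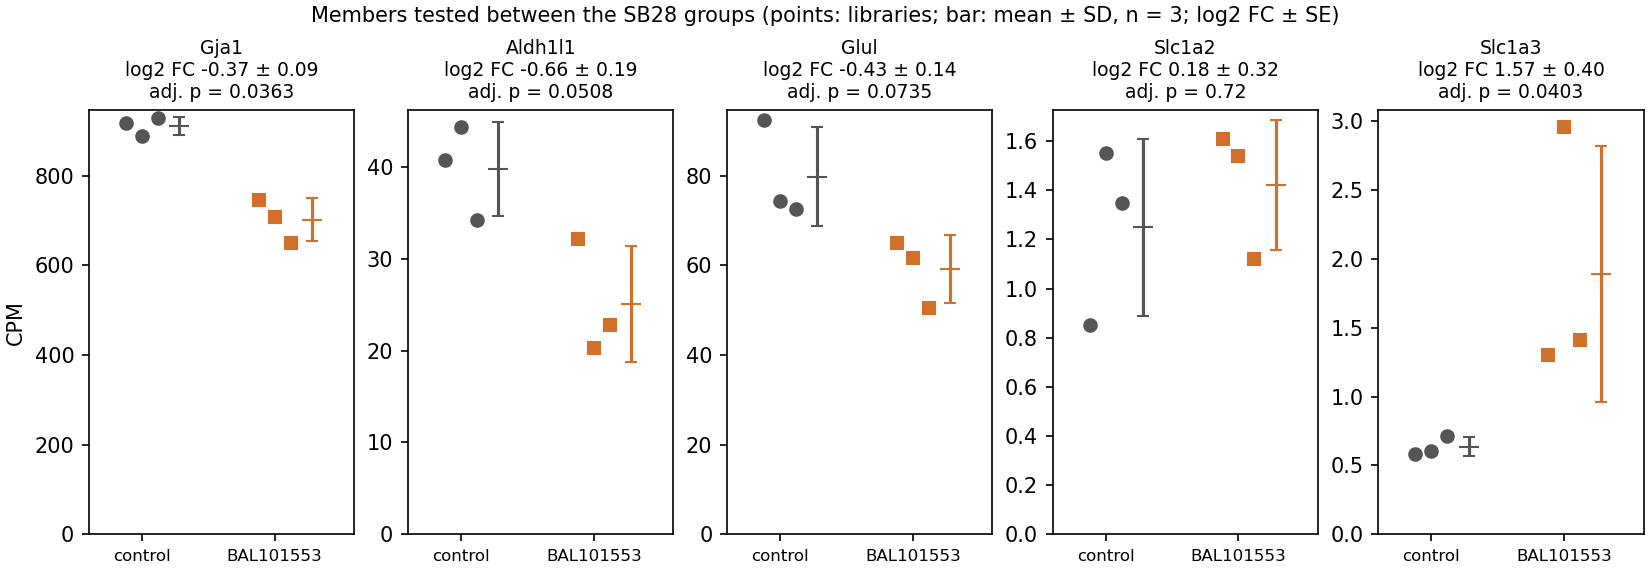
CPM of the 5 members tested between control (circles) and BAL101553 (squares) SB28 libraries, each panel with its own axis from 0; points are libraries and bars are means ± SD of 3, with the log2 fold change ± SE and adjusted p from edgeR above. The groups do not overlap for *Gja1*, *Aldh1l1*, *Glul* and *Slc1a3*, and they overlap for *Slc1a2*.

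Lists of genes around the members were compared in the same way. Against BAL101553 cells, 46.3% of all genes tested were called higher in astrocytes and 38.9% lower. The list counts below stand beside these shares. In the lists that follow, genes below the count filter in the tumor libraries entered the comparison through the astrocyte libraries, which fixed their direction. In the tumor libraries the filter was passed by 8 of 10 glutamate, 5 of 11 connexin, 6 of 12 end-foot and 20 of 30 further astrocyte genes. Of 10 glutamate and glutamine genes, *Slc1a2*, *Slc1a3* and *Glul* included, 7 were higher and 3 lower in astrocytes than in BAL101553 tumor cells, with a median log2 fold change of 3.49 against 0.18 for all genes tested. Among the lower genes was *Got2*, the mitochondrial aspartate aminotransferase (log2 -1.28). Between the SB28 groups, *Got2* was lower after BAL101553 (log2 -0.52, adjusted p = 0.0133, edgeR), and it passed in 5 of 6 fits with a library left out, all but that without control library 3.

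Around *Gja1*, 9 of 11 connexins and gap junction partners were higher in astrocytes and 1 was lower, with a median log2 fold change of 3.37. *Gjb6*, the connexin 30 that astrocytes use beside connexin 43, was at 325 ± 49.3 CPM in astrocytes and 0.108 ± 0.0558 CPM in control tumor cells. The lower gene was *Gjc1*, connexin 45, at 28.3 ± 4.97 CPM in BAL101553 cells and 13 ± 1.31 CPM in astrocytes.

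Around *Aqp4* and *Hepacam*, all 12 end-foot genes, both members included, were higher in astrocytes than in BAL101553 cells (median log2 5.28). *Kcnj16*, the potassium channel Kir5.1, was at 118 ± 12 CPM in astrocytes and at 0, 0.0395 and 0 CPM in the BAL101553 libraries. *Mlc1*, the membrane partner of GlialCAM, was at 697 ± 88.3 against 0.196 ± 0.103 CPM in BAL101553 cells.

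The families of *Aldh1l1*, *Gfap* and *S100b* each held genes called in both directions. Of 10 folate one-carbon genes, *Aldh1l1* was the 1 higher in astrocytes, 8 were lower and 1 did not pass, with a median log2 of -1.52. Of 12 intermediate filament genes tested, *Gfap* among them, 4 were higher and 8 lower (median -2.41). *Vim*, vimentin, was at 5205 ± 560 CPM in BAL101553 cells and 280 ± 53.2 CPM in astrocytes (log2 -4.20), and *Nes*, nestin, fell from 645 ± 109 to 307 ± 48 CPM between control and BAL101553 cells (log2 -1.07, adjusted p = 0.0104, edgeR), a call lost without control library 3. In the S100 family 6 of 12 genes were higher and 4 lower, close to the shares over all genes (46.3% and 38.9%). *S100a6* was at 1721 ± 120 CPM in BAL101553 cells and 32.9 ± 4.22 CPM in astrocytes, while *S100b* went the other way. Of 8 genes of serine synthesis and release, with *Slc7a10*, 5 were higher and 2 lower (median 0.70). Between the SB28 groups, where 14.7% of all genes were called, 3 of 8 tested genes passed in the glutamate list, 2 of 6 in the end-foot list and 3 of 10 in the S100 family. Among connexins and partners 1 of 5 passed, among intermediate filaments 2 of 9, among serine genes 1 of 7 and among folate genes 1 of 10. Besides those already given they included *Slc1a4* (log2 0.55), *Clcn2* (0.63), *S100a4* (0.65) and *S100a16* (1.23) higher and *Dmd* (-0.93), *Nefm* (-2.27) and *S100a11* (-0.59) lower after BAL101553, and none of these 7 passed without control library 3. Of 6 fits with a library left out, *Clcn2* passed in 0, *Slc1a4* in 1, *S100a16* and *Dmd* in 2, *S100a4* in 3, *S100a11* in 4 and *Nefm* in 5.

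**Figure D4:**
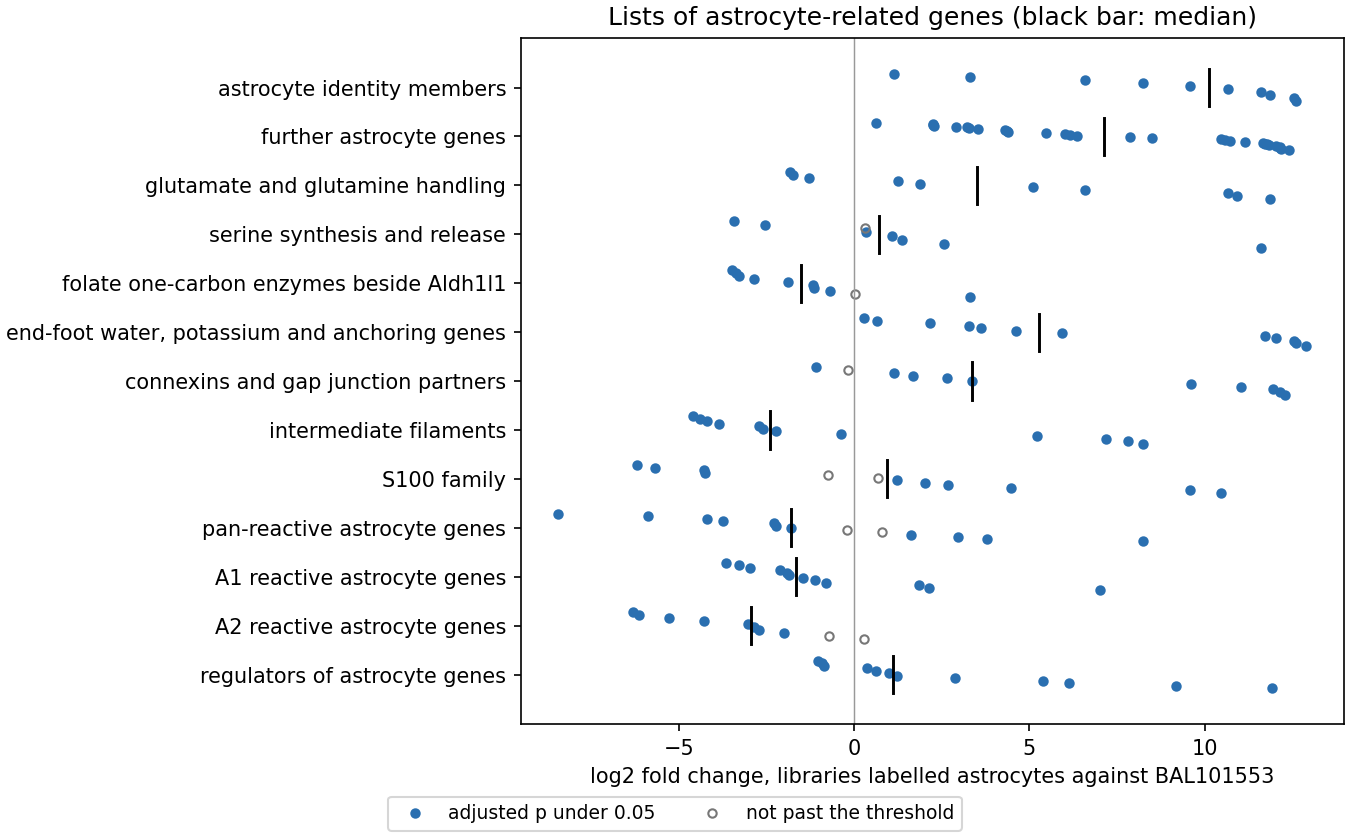
Log2 fold change of each gene of 13 lists between the astrocyte and BAL101553 libraries; filled points passed an adjusted p of 0.05 in edgeR, open points did not, and black bars are list medians. The members, further astrocyte genes and end-foot genes lie above 0 throughout, while most folate, intermediate filament and reactive astrocyte genes lie below 0.

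A further list of 30 astrocyte genes was higher in astrocytes than in BAL101553 cells for all 30 (median log2 7.13), beside 46.3% of all genes tested. As with the members, SB28 cells used some of them: 14 were above 1% of the astrocyte level and 13 below 0.1%. *Sox9*, a transcription factor of glial cells, was at 85.5% of the astrocyte level, with 160 ± 21.3 CPM in control, 101 ± 21.2 CPM in BAL101553 and 153 ± 11.6 CPM in astrocyte libraries. *Cpe* and *Clu*, named after their values were seen, stood at 25.2% and 22.5%, and *Ntsr2* at 0.0129%. Between the SB28 groups *Sox9* was lower after BAL101553 (log2 -0.65, adjusted p = 0.0410, edgeR), though in 2 of 6 fits with a library left out, those without control library 2 or BAL101553 library 1. *Acsl6* and *Acsbg1*, which activate fatty acids, were also lower (log2 -1.32 and -0.93). They passed in 2 and 3 of 6 such fits, and neither passed without control library 3. *Dio2*, the deiodinase that makes active thyroid hormone, was higher, at 2.15 ± 0.895 CPM in control, 18.7 ± 9.2 CPM in BAL101553 and 172 ± 32.9 CPM in astrocyte libraries (log2 3.12 between the SB28 groups, adjusted p = 0.00906, edgeR), and passed in 6 of 6 such fits. These 4 were the calls among 20 genes of the list tested between the SB28 groups, beside 14.7% of all genes. Among 12 regulators, 9 were higher in astrocytes than in BAL101553 cells and 3 lower, beside 46.3% and 38.9% of all genes. *Nfia*, an NFI factor of astrocyte development, was at 109 ± 6.98 CPM in astrocytes against 1.6 ± 0.148 CPM in control tumor cells. Between the SB28 groups, 2 of 10 tested regulators were higher after BAL101553 and 1, *Sox9*, was lower, beside 8.64% and 6.09% of all genes. The higher genes were *Nfib* (log2 0.75, adjusted p = 0.0141, edgeR) and *Nfix* (log2 0.66, adjusted p = 0.0199, edgeR). They passed in 4 and 3 of 6 fits with a library left out, and neither passed without control library 3.

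Reactive astrocytes, those that respond to injury or inflammation, are described by a pan-reactive list and by lists called A1 (inflammation) and A2 (ischemia). Against BAL101553 cells, astrocytes were lower for 7 of 13 pan-reactive genes and higher for 4, *Gfap* among the higher (log2 8.24). Astrocytes were also lower for 9 of 12 genes of the A1 list and higher for 3, and lower for 8 of 10 tested genes of the A2 list. Over all genes in this comparison, 38.9% were called lower and 46.3% higher. Between the SB28 groups, 5 of 11 pan-reactive genes were higher after BAL101553 and 1, *Timp1*, lower, where 8.64% of all genes were called higher and 6.09% lower. *Gfap* was below the filter. *Cp*, ceruloplasmin, rose from 105 ± 9.24 to 330 ± 102 CPM (log2 1.66, adjusted p = 0.00728, edgeR). *C3*, complement component 3 and a gene of the A1 list, rose from 0.243 ± 0.219 to 5.92 ± 2.37 CPM (log2 4.61, adjusted p = 0.00728, edgeR), with log2 fold changes from 4.21 without control library 3 to 5.58 without control library 1. Its control level was near the value of 3 reads, 0.114 to 0.135 CPM in control libraries. *C3* thus passed the count filter through the BAL101553 libraries, which fixed its direction. *C3* and *Lcn2* fell below the filter of at least 10 counts in every library. *Cp* and *C3* passed in 6 of 6 fits with a library left out, while the other 4 pan-reactive genes that were higher (*Lcn2*, *Aspg*, *Serpina3n* and *Osmr*) and *Timp1* did not pass without control library 3. *Serpina3n* passed in 1 of the 6 fits, *Lcn2*, *Osmr* and *Timp1* in 4 and *Aspg* in 5. Over the same tumor libraries the microglia markers summed to 43.7 to 51.3 CPM in control and 43.7 to 57.8 CPM in BAL101553. *P2ry12*, a purinergic receptor of microglia, was the 1 called of 6 tested (log2 -1.88, adjusted p = 0.0313, edgeR), at 1.02 to 2.69 CPM in control and 0.355 to 0.589 CPM in BAL101553 libraries, and it passed in 1 of 6 fits with a library left out. The oligodendrocyte markers summed to 18.7 to 20.6 and 15.3 to 18.9 CPM. Of 4 tested, *Mbp*, *Mag* and *Cldn11* were lower without overlap after BAL101553 but did not pass (adjusted p = 0.352, 0.175 and 0.0511, edgeR). In this comparison the groups did not overlap for 39.7% of all genes tested. The part of these markers in the differences between the SB28 groups was not tested.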

How the data were processed

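Whole-number read counts per gene symbol for 9 libraries were deposited by the authors. Per the methods, a stranded kit was used, TopHat aligned the reads, and HTSeq (0.6.1 in the submitters' processing notes) and featureCounts gave counts; the strand setting of the counting was not given in the sources used here. Gene names turned into dates (27 rows, at most 0.440% of counts) stayed in the table. The counts were tested with edgeR 4.0.16 in R 4.3.3 (filterByExpr, TMM, quasi-likelihood, Benjamini-Hochberg over all genes tested, threshold 0.05), one pair of groups per fit. CPM used TMM over all 9 libraries, and exon length came from GENCODE vM21 on GRCm38. Exons of *Slc1a2*, *Aldh1l1*, *Glul* and *Slc7a10* overlap those of other annotated genes. Alternatives were DESeq2 1.42.0, limma-trend (limma 3.58.1), other scalings and filters, a 9-library model, the replicate block and leaving out each library. The test script was tested on simulated data.

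All 10 members are named. Outside genes were named from lists around each member's role, with the 5 genes most like the members' mean profile. Members and lists were chosen with earlier results of these data known. Libraries were grouped by the labels. The methods state 2 ex vivo samples per group, while 3 libraries per group were analysed here. Replicates of a group differed beyond sampling noise. Intervals cover counting error only. Some listed genes are not reported here.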

Additional observations from a re-analysis of the deposited data

How the results depend on the processing

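Against astrocytes, every member stayed called and higher under each alternative in which it was tested. For *Gfap*, *Aqp4*, *S100b*, *Hepacam* and *Slc7a10* this adds no support, since the astrocyte libraries alone passed the count filter and fixed the direction. A filter of at least 10 counts in every library left 5 members to test and call in either comparison. *Gja1* in tumor cells was at 53% of the astrocyte level with TMM and 43.9% with library totals. At a cut of 0.5 CPM, 5 members counted as expressed by SB28 cells in place of 3.

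Between the SB28 groups, 1860 genes and 2 members were called. DESeq2 called 2832 genes and 4 members, and the 9-library model 3022 genes and 4 members. On counts simulated for this comparison with 200 changed genes, DESeq2 recovered 151 and made 54 false calls. The main test recovered 138 and made 17 false calls. Library totals called 1 member, with 77.4% of gene calls higher against 58.7% with TMM. Leaving out 1 library gave 193 (without control library 3) to 1712 genes, with 458 without control library 1, 1133 without BAL101553 library 1 and 668 without BAL101553 library 3, and 0 to 2 members. *Aldh1l1* passed in 7 of 15 alternatives (DESeq2 adjusted p = 0.00792; range 0.00792 to 0.137) and *Glul* in 2 of 15 (0.0329 to 0.187). *Slc1a2* ranged from -0.03 (without control library 1) to 0.36 on the log2 scale and passed in none.

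With the replicate number as a block, 1371 genes and 0 members were called between the SB28 groups (adjusted p = 0.0614 for *Slc1a3* and 0.0718 for *Gja1*, edgeR). Same-numbered libraries deviated together with correlations of 0.14, 0.01 and 0.15, so the numbers were not taken to pair them. With library totals in place of TMM, the median log2 fold change of all genes moved by 0.2 and 0.3 in the comparisons with astrocytes. For the 5 members at 0 to 13 reads, neither the filter of 1 count in any library (adjusted p 0.327 to 0.979) nor the 9-library model (0.156 to 0.985) called a difference between the SB28 groups, and this depth limits what could be seen. The causes of these changes were not tested.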
